A study of Homo sapiens with 9 samples.

Results

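Cytosolic heat shock response genes were followed in hTERT_RPE1 cells, a telomerase-immortalised, established line from retinal pigment epithelium. The 10 genes, of 26475 gene symbols in the count table, were HSPA6, HSPA1A, HSPA1B, HSPA8, DNAJB1, HSPH1, HSPB1, HSP90AA1, BAG3 and HSPE1. They were chosen by symbol as chaperones and co-chaperones driven by the heat shock factor HSF1, and with the high count of HSPA6 under hairpin #1 already in view. Values of sh_PIP4K2B against Control are therefore given as a description, with no p-value for these genes, and any count of genes past a threshold there is descriptive too. The rule of choice did not name Soft against Control, which was tested, though earlier results of these data were known when the genes were chosen. The 9 RNA-seq libraries fall into 3 conditions of 3 libraries, collected 24 h after seeding. Control cells grew on fibronectin-coated glass with empty pLKO vector. In sh_PIP4K2B cells, on the same glass, PIP4K2B was silenced with shRNA#1, #2 or #3, and each hairpin gave 1 library. Soft cells carried the same vector as Control and grew on a fibronectin-coated 2.3 kPa gel. The treatment label of Control and Soft reads Ctrl shRNA, the name the study gives to the empty vector. The labels do not say whether replicates were separate cultures, so p-values measure the spread between these libraries only, which may be technical.

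Cells answer misfolded protein with the heat shock response. HSF1, held inactive by chaperones in unstressed cells, is set free, forms trimers and binds heat shock elements, which are alternating inverted repeats of nGAAn, in the promoters of chaperone genes. HSP70 proteins hold unfolded chains, J-domain proteins such as DNAJB1 deliver clients to them and start ATP hydrolysis, and HSP110 (HSPH1) and BAG proteins exchange the nucleotide. HSP90 matures kinases and receptors, and small heat shock proteins such as HSPB1 keep aggregating proteins soluble. HSPA8 and HSP90AA1 are abundant in unstressed cells, whereas HSPA1A and HSPA1B, and above all HSPA6, are known as strongly inducible genes.

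Library totals ran from 19217346 to 24020799 estimated counts. Levels are given as CPM, counts scaled to a common library size after TMM normalisation, and the floor of 3 counts in a library lay at 0.131 to 0.148 CPM. PIP4K2B itself, the targeted gene, stood at 122 ± 2.26 CPM in Control and 122 ± 3.90 CPM in Soft (SD, n = 3), and fell to 48.4, 40.9 and 36.6 CPM under hairpins #1, #2 and #3. The hairpin libraries stood apart from each other, with a median SD of log2 CPM over the 13784 genes tested of 0.328 against 0.0771 in Control and 0.0711 in Soft. Genes over 2-fold away from the mean of Control numbered 1794 for hairpin #1, 649 for hairpin #2 and 1239 for hairpin #3. Of 9 markers of retinal pigment epithelium only MITF and OTX2 were above 1 CPM (24.4 to 39.3 and 10.3 to 39.4 CPM), and RPE65 was at 0 in 7 libraries. KRT8 and KRT18, keratins of simple epithelia, were at 336 CPM or more, while EPCAM and CDH1 did not exceed 0.0912 CPM. Summed, these 4 epithelial markers were at 1921 to 2073 CPM in Control, 708 to 1122 CPM with the hairpins and 891 to 943 CPM in Soft, and the retinal pigment epithelium list was at 45.8 to 51.7 CPM, 41.0 to 58.2 CPM and 62.4 to 67.5 CPM in the same order. The summed level of 3 leukocyte markers was 143 to 148 CPM in Soft against 64.2 to 68.9 CPM in Control and 42.8 to 80.5 CPM with the hairpins, nearly all of it CD68 (PTPRC at most 0.524 CPM, CD3E at 0 in 7 libraries), and that of 3 endothelial markers was 4.87 to 5.86 CPM in Soft against 0.132 to 0.874 CPM in Control, with CDH5 at 0 in 8 libraries. The part of these markers in the results was not tested.

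The promoters are shown because heat shock elements are the letters through which HSF1 is known to act on these genes. RefSeq promoter windows (GRCh38.p14, 250 bases before to 50 after each start) were found for all 10 genes, as 13 windows, since DNAJB1 and HSP90AA1 have several starts. The windows were searched for 2 inverted units of the element, GAANNTTC or TTCNNGAA, each of which reads the same on both strands and may overlap the other. Such a pair was present in 8 of the 13 windows (61.5%), belonging to 7 genes, against 13.5% of all 35116 windows of this length. A run of 3 alternating units was present in 3 windows (23.1%), those of HSPA6, HSPA8 and HSP90AA1, against 0.490% of all windows. No pair of these letters was in the windows of HSPH1, BAG3 and HSPE1. For each gene with a pair before the start, 30 bases are given 5′ to 3′ on the strand of the gene, with the matched letters in capitals. The first capital lies 74, 106, 105, 55, 47, 182 and 88 bases before the start, in the order of the lines.
HSPA6, chr1:161524458-161524487, plus strand: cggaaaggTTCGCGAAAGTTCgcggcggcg
HSPA1A, chr6:31815426-31815455, plus strand: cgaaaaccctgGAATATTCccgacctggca
HSPA1B, chr6:31827622-31827651, plus strand: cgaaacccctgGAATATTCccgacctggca
HSPA8, chr11:123062170-123062199, minus strand: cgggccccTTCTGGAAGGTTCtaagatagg
DNAJB1, chr19:14518426-14518455, minus strand: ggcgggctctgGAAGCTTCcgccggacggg
HSPB1, chr7:76302480-76302509, plus strand: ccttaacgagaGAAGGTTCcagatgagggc
HSP90AA1, chr14:102087104-102087133, minus strand: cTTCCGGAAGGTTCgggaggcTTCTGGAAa
HSPA1A and HSPA1B, a tandem gene pair on chromosome 6, share 92.6% of aligned promoter bases, and their printed stretches differ at 1 of 30 bases. A match is a description of letters and not a bound site.

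HSPA6, the most strictly inducible cytosolic HSP70, is a gene of 1 exon on chromosome 1 (161524540 to 161526894, plus strand, GRCh38). It was at 1.02, 1.05 and 1.00 CPM in the 3 Control libraries, or 22 to 24 counts. With hairpins #1, #2 and #3 it was at 126, 10.5 and 17.9 CPM, and on the soft gel at 0.365, 0.190 and 0.268 CPM. All hairpin libraries were above, and all Soft libraries below, every Control library. Hairpin #1 was 122-fold, hairpin #2 10.3-fold and hairpin #3 17.4-fold of the Control mean, so the rise was seen with each hairpin while hairpin #1 set its size. Without hairpin #1 the fitted log2 fold change was 3.78 in place of 5.64. Remaining PIP4K2B was at 48.4, 40.9 and 36.6 CPM with hairpins #1, #2 and #3. With 1 library per hairpin, a link between this level and that of HSPA6 was not tested. In Soft the level rested on 8, 4 and 6 counts, and the log2 fold change of -1.88 (SE 1.34) did not pass (adjusted p = 0.27, from the quasi-likelihood F test of edgeR, with the method of Benjamini and Hochberg over all genes). Its Control libraries are those of the comparison in which HSPA6 was seen to be high, so this test is not independent of the choice. HSPA6 shares 35.3% of its 75-mers, 75 nt being the read length, with the neighbouring HSPA7, which was not among the genes tested. How reads common to both were assigned is not given in the sources used here.

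**Figure D1:**
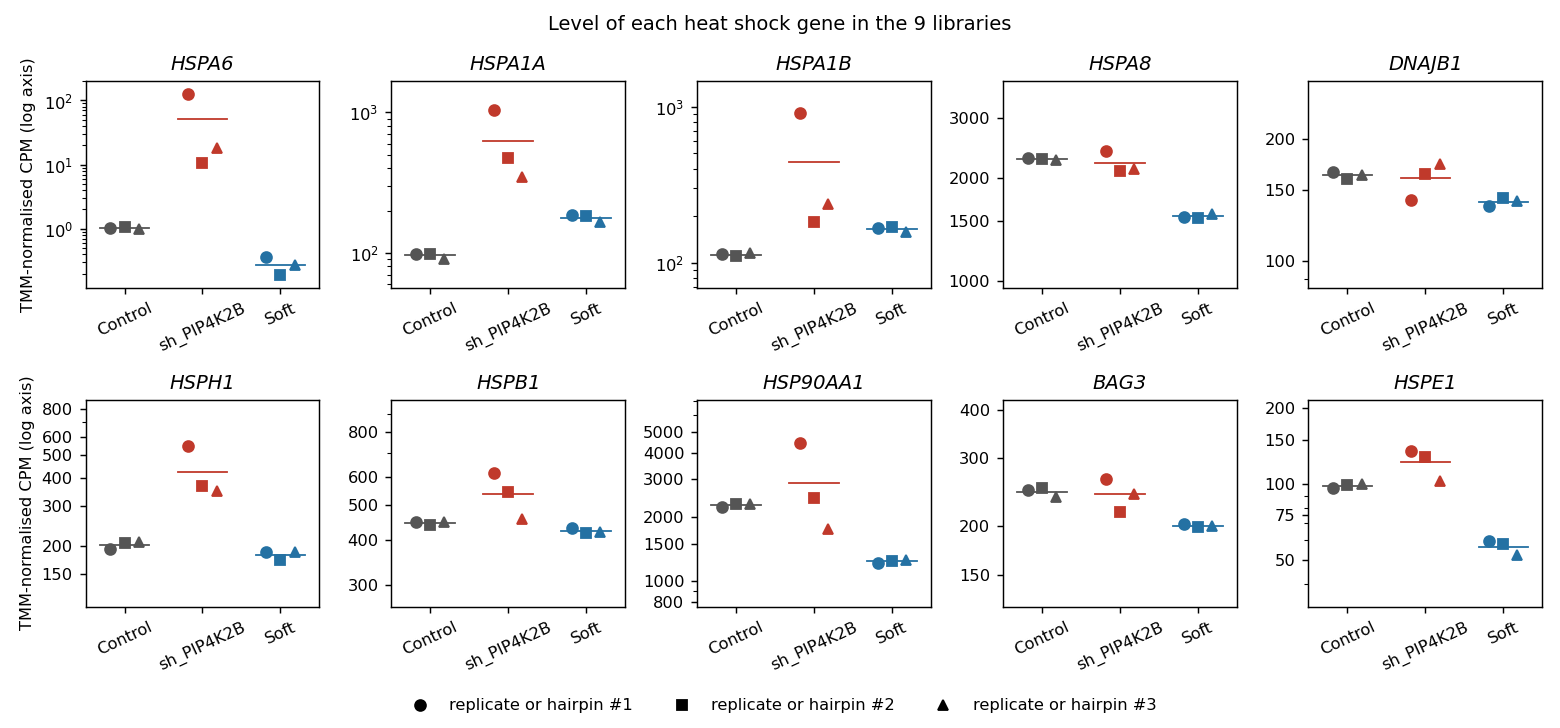
Normalised CPM of each heat shock gene (log axis, with a separate range for every panel) in the 9 libraries by condition, with horizontal lines at the condition means and marker shapes for replicate or hairpin number. HSPA6 spans from 0.190 CPM in a Soft library to 126 CPM with hairpin #1, while HSPA8, DNAJB1 and BAG3 stay within a narrow range with the hairpins.

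HSPA1A and HSPA1B encode the classic stress-inducible HSP70. Each is a gene of 1 exon on the plus strand of chromosome 6, at 31815543 to 31817946 and 31827738 to 31830254 (GRCh38). HSPA1A was at 98.8, 98.6 and 89.7 CPM in Control, at 1046, 470 and 349 CPM with hairpins #1, #2 and #3, and at 185, 184 and 165 CPM in Soft. HSPA1B was at 113, 110 and 114 CPM in Control, at 911, 183 and 236 CPM with the hairpins, and at 166, 170 and 158 CPM in Soft. Both genes were thus higher in every hairpin library and in every Soft library than in any Control library, and these were the only 2 of the 10 genes with all Soft libraries above Control (40.4% of all genes tested were so placed). In Soft their log2 fold changes of 0.89 (SE 0.33) and 0.55 (SE 0.50) did not pass the threshold of 0.01 (edgeR adjusted p = 0.051 and 0.39). These standard errors come from 1 estimate of the spread shared by the 9 libraries, which includes the differences between hairpins. In a fit of the 6 Soft and Control libraries alone the log2 fold changes were 0.89 and 0.54 and both passed (edgeR adjusted p = 5.3e-10 and 9.1e-09), as they did without hairpin #1 (edgeR adjusted p = 2.8e-04 and 0.0017).

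The copies cannot be told apart over most of their length, since 73.8% of the 75-mers of HSPA1A also occur in HSPA1B, so the split between them rests on the authors' estimation. Summed, the pair was at 208 ± 4.01 CPM in Control and 342 ± 17.0 CPM in Soft (SD, n = 3), and at 1957, 653 and 585 CPM with hairpins #1, #2 and #3, which is 9.40-fold, 3.14-fold and 2.81-fold of the Control mean. The sum therefore kept the pattern that both rows show, with hairpin #1 far above the other two and Soft between them and Control. Its log2 fold change in Soft was 0.72 (SE 0.39, edgeR adjusted p = 0.16). HSPA1A held 46.0 ± 1.75% of the counts of the pair in Control and 52.0 ± 0.825% in Soft (SD, n = 3). With hairpins #1, #2 and #3 it held 53.5%, 72.0% and 59.7% (95% Wilson intervals 53.0 to 53.9%, 71.2 to 72.7% and 58.8 to 60.5%). These intervals treat every estimated count as a read assigned without doubt. They cover neither the error of the split between the copies nor the spread between libraries, and are too narrow for the share. Hairpin #2 thus had the most uneven split, and the share was above that of every Control library in all 6 other libraries.

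**Figure D2:**
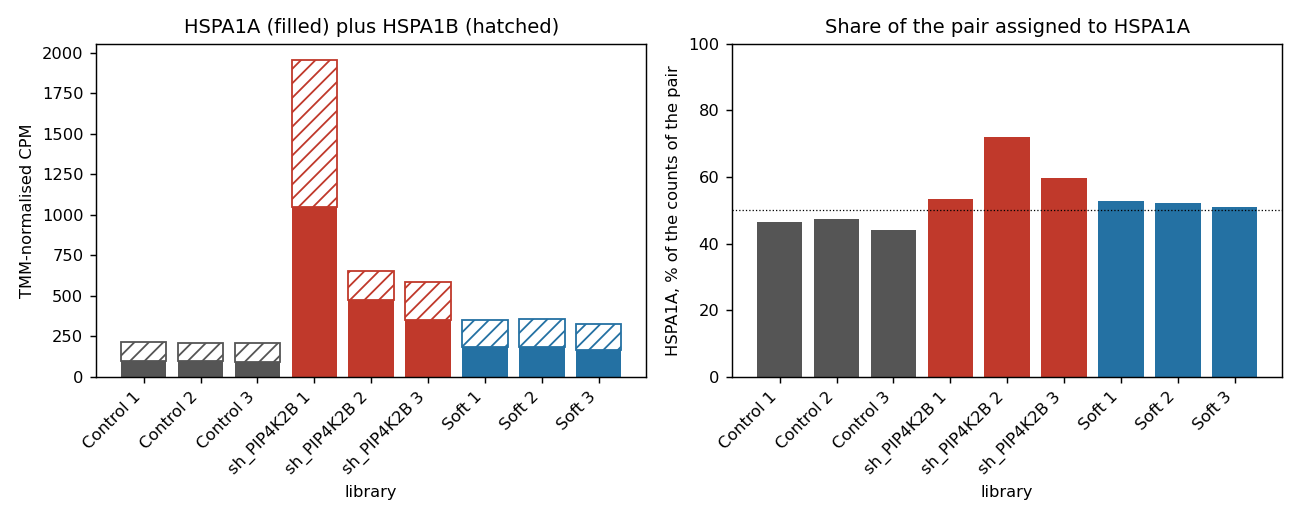
Left, stacked normalised CPM of HSPA1A (filled) and HSPA1B (hatched) in each library. Right, the share of the counts of the pair assigned to HSPA1A in percent, with a dotted line at 50%. The sum is highest with hairpin #1 at 1957 CPM, and the share is highest with hairpin #2 at 72.0%.

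HSPA8, the constitutive HSP70 that serves folding and clathrin uncoating in unstressed cells, was not above Control with every hairpin, unlike its inducible relatives. The gene has 9 exons on chromosome 11 (123057489 to 123063230, minus strand). It was at 2288, 2274 and 2260 CPM in Control and at 2397, 2097 and 2123 CPM with hairpins #1, #2 and #3, values that lie on both sides of Control. In Soft it was at 1537, 1529 and 1571 CPM, below every other library. It fell in Soft by 0.56 on the log2 scale (SE 0.11, edgeR adjusted p = 0.0035), to 0.680-fold of the Control mean. In bulk RNA a lower level can mean fewer cells that express a gene or less RNA per cell, which cannot be told apart. When any 1 library of Control or Soft was left out, or when scaled by library size only, HSPA8 kept its direction and no longer passed 0.01, with a highest adjusted p of 0.021 (edgeR) against a lowest of 2.6e-10 over all alternatives.

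HSPE1, the small ring subunit that closes the mitochondrial chaperonin and is itself a heat shock gene, fell on the soft gel as well. Its 4 exons lie on chromosome 2 (197500140 to 197503449, plus strand). It was at 96.3, 99.5 and 99.7 CPM in Control and at 59.4, 57.8 and 52.1 CPM in Soft. The log2 fold change was -0.80 (SE 0.12, edgeR adjusted p = 6.3e-04), and it passed in each of the 16 alternatives, with values from -0.84 to -0.70 and adjusted p from 1.1e-09 to 0.0056. With hairpins #1, #2 and #3 it was at 135, 129 and 103 CPM, each above every Control library, though hairpin #3 was at 1.04-fold of their mean. Of its 75-mers 40.4% also occur in other genes, 24.6% in the read-through gene HSPE1-MOB4.

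HSP90AA1, the inducible cytosolic HSP90, had the widest disagreement between hairpins after the inducible HSP70 genes. It has 11 exons on chromosome 14 (102080742 to 102139699, minus strand). It was at 2217, 2311 and 2306 CPM in Control, and at 4429, 2449 and 1748 CPM with hairpins #1, #2 and #3. The libraries of hairpins #1 and #2 were above and that of hairpin #3 below every Control library, and the fitted log2 fold change of 0.34 turned to -0.12 without hairpin #1. On the soft gel the level was 1219, 1246 and 1254 CPM, 0.544-fold of the Control mean and below every hairpin library. Its log2 fold change there of -0.88 (SE 0.28, edgeR adjusted p = 0.029) did not pass 0.01. It did so in 4 of 16 alternatives, with adjusted p from 3.0e-12 in the fit of Soft and Control alone to 0.083.

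HSPH1, the HSP110 that recharges HSP70 with ATP, followed the inducible HSP70 genes in the hairpin libraries. The gene has 18 exons on chromosome 13 (31134973 to 31162388, minus strand). It was at 194, 205 and 207 CPM in Control and at 551, 366 and 348 CPM with hairpins #1, #2 and #3, which is 2.72-fold, 1.81-fold and 1.72-fold of the Control mean. Its hairpin values were the most even of HSPA6, HSPA1A, HSPA1B and HSPH1, the 4 genes with the highest fitted log2 fold changes in sh_PIP4K2B. In Soft it was at 188, 173 and 189 CPM, slightly below Control, with a log2 fold change of -0.14 (SE 0.17, edgeR adjusted p = 0.53). HSPH1 and HSPA6 varied together over the 9 libraries, with r = 0.985 in log2 CPM, the 9th highest among 12118 genes whose mean count reached 50 in any condition. The other members ranked far lower. HSPB1 (r = 0.895) was at rank 497, HSPE1 (0.829) at 972 and HSPA1A (0.827) at 990. HSP90AA1 (0.796) was at rank 1236 and HSPA1B (0.794) at 1255. The 5 genes most like HSPA6 were USP38, ZDBF2, ERLIN2, FBXL5 and ZNF12 (r from 0.988 to 0.996), none of them a heat shock gene by name. USP38 was at 34.1, 33.9 and 37.4 CPM in Control, at 92.1, 54.2 and 59.5 CPM with the hairpins and at 26.8, 25.9 and 26.2 CPM in Soft. The points share 3 conditions and a single library of hairpin #1, in which HSPA6 was seen to be high when the genes were chosen. These r values and ranks therefore describe these libraries only, and nothing is read from them.

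DNAJB1 and BAG3, co-chaperones that are strongly induced by heat in many cells, were not above Control with every hairpin, unlike HSPA6. DNAJB1 has 3 exons on chromosome 19 (14514769 to 14560391, minus strand) and BAG3 has 4 on chromosome 10 (119651380 to 119677819, plus strand). DNAJB1 was at 166, 159 and 163 CPM in Control and at 142, 164 and 174 CPM with hairpins #1, #2 and #3, so that its lowest value was in the library where HSPA6 was highest. BAG3 was at 248, 252 and 237 CPM in Control and at 265, 218 and 242 CPM with the hairpins. Both groups of values overlap, and the fitted log2 fold changes of -0.026 and -0.023 turned to 0.063 and 0.076 when scaled by library size only. In Soft DNAJB1 was at 137, 143 and 140 CPM and BAG3 at 203, 199 and 200 CPM, with all Soft libraries below Control. Neither passed there, with log2 fold changes of -0.22 (SE 0.10, edgeR adjusted p = 0.11) and -0.29 (SE 0.10, edgeR adjusted p = 0.043). The r of DNAJB1 with HSPA6 was 0.28, the lowest of the other 9 genes, while that of BAG3 was 0.67 and that of HSPA8 0.66.

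HSPB1, the small heat shock protein HSP27, moved least among the genes higher with every hairpin. It has 3 exons on chromosome 7 (76302673 to 76304295, plus strand). It was at 450, 441 and 450 CPM in Control and at 616, 545 and 457 CPM with hairpins #1, #2 and #3, hairpin #3 being 1.02-fold of the Control mean. In Soft it was at 432, 418 and 422 CPM. The log2 fold change of -0.076 (SE 0.12, edgeR adjusted p = 0.64) on the soft gel turned to 0.031 when scaled by library size only, a scaling that shifts the median log2 fold change of all genes to 0.12 in Soft and 0.14 in sh_PIP4K2B.

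**Figure D3:**
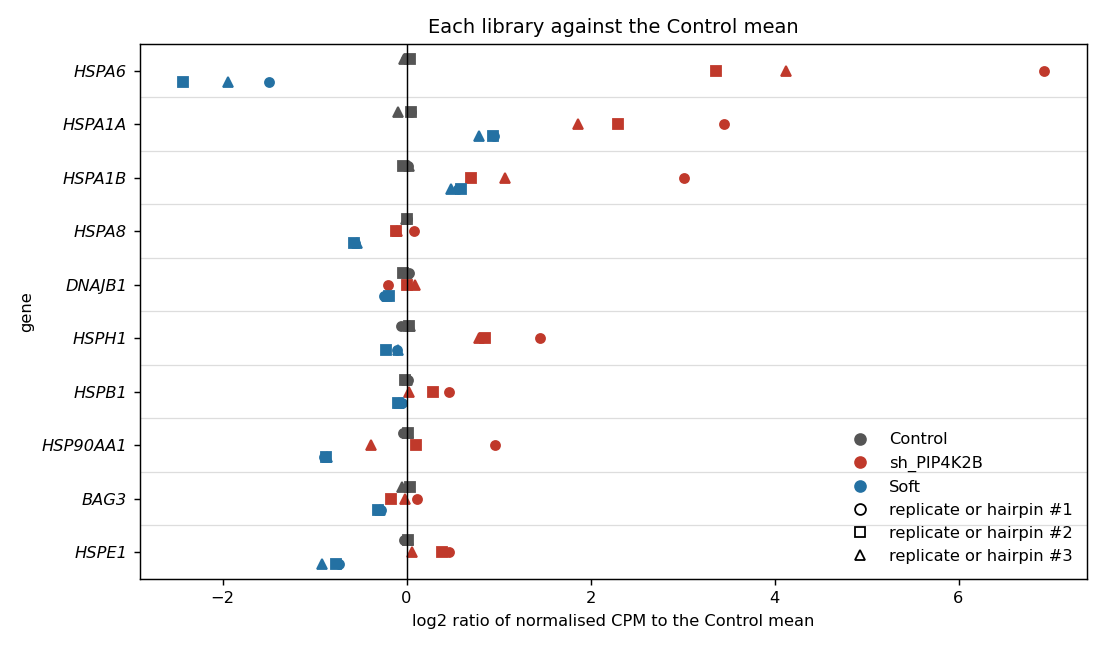
Log2 ratio of the normalised CPM of each library to the Control mean for the 10 genes, coloured by condition and with shapes for replicate or hairpin number. Hairpin #1 lies farthest to the right for 9 of the 10 genes, all but DNAJB1, and all Soft points lie left of 0 except for HSPA1A and HSPA1B.

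Counted over the 10 genes, 6 had all 3 hairpin libraries above all 3 Control libraries, namely HSPA6, HSPA1A, HSPA1B, HSPH1, HSPB1 and HSPE1. Of all genes tested 17.4% did so, but HSPA6 under hairpin #1 was in view when the genes were chosen, and nothing is read from this count. Similarly 3 of 10 were past 0.01 in sh_PIP4K2B against Control (HSPA6, HSPA1A and HSPH1, each of them higher, with 5.54% of all genes called), and 0 of 10 without Control replicate 1, 2 or 3, where 4 had an unadjusted p below 0.05 in edgeR. Those fits without a Control library called 122, 66 and 161 genes in all. DESeq2 called the same 3 genes on the 9 libraries. More than 2-fold above the Control mean were 4 genes with hairpin #1, 2 with hairpin #2 and 3 with hairpin #3, and none was more than 2-fold lower. Of all genes tested 13%, 4.71% and 8.99% were more than 2-fold away in either direction with hairpins #1, #2 and #3. Nothing is read from these counts either. The median log2 ratio of the 10 genes to the Control mean was 0.711, 0.336 and 0.080 with hairpins #1, #2 and #3. HSPA6 and HSPA1A were above 2-fold with each hairpin, while the size of the difference varied between hairpins.

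In Soft 8 of the 10 genes had all 3 libraries below Control (39.1% of all genes tested), and 2 had all 3 above. At an adjusted p below 0.01 (edgeR) 2 of the 10 were called, HSPA8 and HSPE1, both lower, against 30.6% of all genes called and 14.8% called lower. None of the 10 was called higher (15.8% of all genes were), 1 had an unadjusted p below 0.05 in that direction, and DESeq2 called none higher. The fit of Soft and Control alone called 9 of 10, all but HSPB1, with 70.7% of all genes called. Without hairpin #1 7 of 10 were called against 45.6% of all genes, and with DESeq2 4 of 10, HSPA8, HSP90AA1, BAG3 and HSPE1, against 39.6%. The share of the 10 genes called was thus below that of all genes in the fit of 9 libraries and near it with DESeq2. It was above that of all genes in both of these smaller fits, but not in every smaller fit. Without hairpin #2 and without hairpin #3, 3 of 10 were called, against 5160 of 13974 and 5819 of 13950 genes. Without Control or Soft replicate 1, 2 or 3 only HSPE1 was called. These fits called 2506 to 2721 genes in all, against 4217 in the fit of 9 libraries.

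Soft and sh_PIP4K2B were each set against the same Control libraries, so that only their own values are given side by side, and these lay farthest apart for HSPA6. In Soft 9 of the 10 genes had all libraries below all hairpin libraries, against 26.7% of all genes tested. The exception was DNAJB1, whose hairpin #1 library lay within the Soft values. In the direct fit 6 of 10 were past 0.01, all lower in Soft, against 30.0% of all genes. Both counts, the 9 of 10 and the 6 of 10, use the hairpin libraries by which HSPA6 was chosen, and nothing is read from them. As a share of all counts the 10 genes made up 0.565 ± 0.00682% in Control and 0.425 ± 0.00236% in Soft (SD, n = 3). With hairpins #1, #2 and #3 they made up 1.14%, 0.614% and 0.610% (95% Wilson intervals 1.14 to 1.15%, 0.611 to 0.617% and 0.607 to 0.614%). The share was thus lowest on the soft gel and highest with hairpin #1, and HSP90AA1 and HSPA8 had the highest counts in every library.

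Levels can be compared between genes only per length, here as CPM per kb of the canonical transcript. In Control HSPA8 was highest at 1005 CPM per kb, followed by HSP90AA1 at 706, HSPB1 at 575, HSPE1 at 177, BAG3 at 95.9, DNAJB1 at 72.6, HSPA1B at 44.7, HSPA1A at 39.9, HSPH1 at 38.5 and HSPA6 at 0.436 CPM per kb. HSPA1A and HSPH1 lie within their spread of each other. In sh_PIP4K2B the mean of HSPA1A was 259 and that of HSPA1B 176 CPM per kb, against 71.3 for DNAJB1 and 94.4 for BAG3. HSPA1A was above both in each hairpin library, with 145 CPM per kb or more. HSPA1B was at 362, 72.7 and 93.8 CPM per kb with hairpins #1, #2 and #3. Its value exceeded that of BAG3 with hairpin #1 only, though BAG3 was at 94.5 CPM per kb with hairpin #3. The places of HSPA1A and HSPA1B in these orders rest on the estimated split of reads common to both, so they are uncertain. HSPA6 rose to a mean of 21.8 CPM per kb there and was still the lowest of the 10.

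Other genes of the chaperone network were taken from 9 lists, of which 73 of 77 genes were tested. In Soft 25 of these 73 were lower, 7 were higher and 41 did not pass at 0.01 (edgeR), with a median log2 fold change of -0.23 against 0.0125 over all genes tested. Over all genes 14.8% were called lower and 15.8% higher, the shares against which the counts of each list below are to be read. Without 1 Control or Soft library 14 to 17 of the 73 passed. In sh_PIP4K2B 1 was higher and 2 were lower (1 and 1 when scaled by library size only), with a median of 0.067 against 0.050 over all genes, and 0 passed without any 1 of the Control libraries, where 16 or 17 had an unadjusted p below 0.05 (edgeR). Over all genes 5.54% were called in sh_PIP4K2B, the share for the list counts there. The log2 fold change was positive for 7523 of 13784 genes in sh_PIP4K2B and for 6994 in Soft.

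The regulators of the response did not move as a group in Soft, where 1 of 6 was higher, 1 lower and 4 did not pass (median 0.072). In sh_PIP4K2B 0 of 6 passed (5.54% of all genes did), and 5 of 6 log2 fold changes were positive (median 0.26). Over all genes 7523 of 13784 were positive there. HSF1 itself was at 93.6, 83.2 and 83.3 CPM in Control, at 83.2, 65.3 and 108 CPM with hairpins #1, #2 and #3 and at 88.8, 88.1 and 87.3 CPM in Soft. Activity of the HSF1 protein was not measured, and a link of its mRNA to HSPA6 was not tested. The log2 fold change of HSF1 in Soft was 0.023 (SE 0.16, edgeR adjusted p = 0.92), and that of HSF2, a partner that forms mixed trimers with HSF1, was -0.17 (SE 0.14, edgeR adjusted p = 0.33). HSF4, a factor best known from the lens, rose in Soft by 1.43 (SE 0.18, edgeR adjusted p = 2.3e-04). IER5, an immediate early gene whose product activates HSF1, was at 82.4, 74.7 and 82.6 CPM in Control, at 46.5, 45.9 and 38.3 CPM in Soft and at 175, 126 and 101 CPM with hairpins #1, #2 and #3. It fell in Soft by 0.88 on the log2 scale (SE 0.19, edgeR adjusted p = 0.0041), and each of its hairpin libraries was above Control. HSBP1 (134, 122 and 140 CPM with hairpins #1, #2 and #3, Control at most 106 CPM) was placed likewise. So was DEDD2, with 62.9, 28.6 and 39.5 CPM against at most 20.9 CPM in Control. HSF1, HSF2 and HSF4 were not above Control with every hairpin.

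Among the other HSP70 and HSP110 genes 4 of 7 fell in Soft and none rose (median -0.76), while HSPA1L had the highest log2 fold change of the list at 1.26 and did not pass (edgeR adjusted p = 0.013). HSPA4L, an HSP110 like HSPH1, was at 22.9, 25.7 and 24.0 CPM in Control, at 8.39, 6.67 and 8.63 CPM in Soft and at 86.7, 57.2 and 51.2 CPM with hairpins #1, #2 and #3. All 3 conditions were separate for this gene, with Soft lowest and the hairpins highest, and in Soft it fell by 1.62 (SE 0.20, edgeR adjusted p = 2.6e-04). HSPA4 and HSPA14 fell in Soft by 0.87 and 0.83 (edgeR adjusted p = 7.2e-04 and 2.6e-04). HSPA12B, a distant HSP70 relative, had -0.89 in sh_PIP4K2B.

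The J-domain list had 1 of 7 genes lower and 1 higher in Soft, with a median of -0.014. DNAJB4, a close relative of DNAJB1, fell from 51.3 ± 6.33 to 11.7 ± 0.841 CPM (SD, n = 3), a log2 fold change of -2.13 (SE 0.13, edgeR adjusted p = 7.2e-06), while DNAJB5 rose by 1.19 (edgeR adjusted p = 0.0053). In sh_PIP4K2B 0 of 7 passed (5.54% of all genes did), and all 7 had a positive fitted log2 fold change, as did 7523 of all 13784 genes. The hairpins disagreed, however. With hairpin #2 DNAJA1, DNAJB6 and DNAJC7 were at 0.666-fold, 0.649-fold and 0.861-fold of the Control mean, and with hairpin #3 DNAJB2 was at 0.741-fold. Only DNAJA2, DNAJB4 and DNAJB5 were above that mean with each hairpin. Of the small heat shock protein genes 5 of 8 were tested, and in Soft HSPB2 and HSPB7 rose by 1.96 and 0.97 while HSPB8, the partner of BAG3 in selective autophagy, fell by 0.85 (edgeR adjusted p = 6.6e-04, 0.0057 and 0.0029). HSPB7, known from heart muscle, had -1.46 in sh_PIP4K2B. CRYAB, another small heat shock protein under HSF1, had 0.75 in Soft (SE 0.52), which missed the threshold (edgeR adjusted p = 0.26). The spread behind this SE includes the differences between hairpins. CRYAB was at 6.85, 6.41 and 5.90 CPM in Control and at 11.5, 10.6 and 10.1 CPM in Soft. With hairpins #1, #2 and #3 it was at 38.9, 6.60 and 11.9 CPM, with a fitted log2 fold change of 1.59 in sh_PIP4K2B.

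Of 12 genes for HSP90AB1 and HSP90 co-chaperones 5 fell in Soft, 0 rose and 7 did not pass (median -0.60), the largest changes past the threshold being those of PTGES3, CHORDC1 and CDC37 with -1.12, -0.94 and -0.83 (edgeR adjusted p = 0.0015, 0.0027 and 7.5e-04). PTGES3 encodes p23, which holds HSP90 closed on its client, and CDC37 brings kinases to HSP90. Of the 8 subunits of TRiC, the cytosolic chaperonin that folds actin and tubulin, 5 fell in Soft and 3 did not pass, and all 8 had a negative log2 fold change between -0.93 and -0.49 (median -0.73). CCT8, CCT5 and TCP1 had the lowest, with -0.93, -0.89 and -0.84 (edgeR adjusted p = 0.0097, 0.0017 and 0.0032). In sh_PIP4K2B 0 of these 20 genes passed (5.54% of all genes did), with medians of 0.15 and -0.094.

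Of 7 mitochondrial chaperone genes 5 fell in Soft, 0 rose and 2 did not pass (median -0.75). The list includes HSPD1, the large ring partner of HSPE1. The log2 fold changes were -1.29 for GRPEL1, the exchange factor of mitochondrial HSP70, -1.15 for HSPD1 and -0.78 for TRAP1, the mitochondrial HSP90 (edgeR adjusted p = 3.9e-04, 2.4e-04 and 0.0016). HSP70 partner genes were divided, with BAG2 and BAG4 lower (-1.26 and -0.92) and BAG1 higher (1.24) among 3 lower and 2 higher of 8 (edgeR adjusted p = 4.3e-05, 5.3e-04 and 9.6e-05). BAG1 was at 27.6 ± 0.566 CPM in Control and 65.0 ± 0.796 CPM in Soft (SD, n = 3).

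The chaperones of the endoplasmic reticulum, most of which are known as targets of the unfolded protein response, had 1 of 13 genes past the threshold in Soft (median 0.16) and 0 of 13 in sh_PIP4K2B, where 11 of 13 log2 fold changes were negative (median -0.32). Over all genes 6261 of 13784 were negative in sh_PIP4K2B and 5.54% were called. The gene that passed was SERPINH1, the collagen chaperone HSP47, which carries heat shock elements itself and rose from 365 ± 8.37 to 715 ± 7.44 CPM in Soft (SD, n = 3), by 0.97 on the log2 scale (SE 0.21, edgeR adjusted p = 0.0051). For HSPA5, or BiP, the main HSP70 of this compartment, the log2 fold change was -0.30 in Soft (edgeR adjusted p = 0.056), against -0.18 in sh_PIP4K2B.

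**Figure D4:**
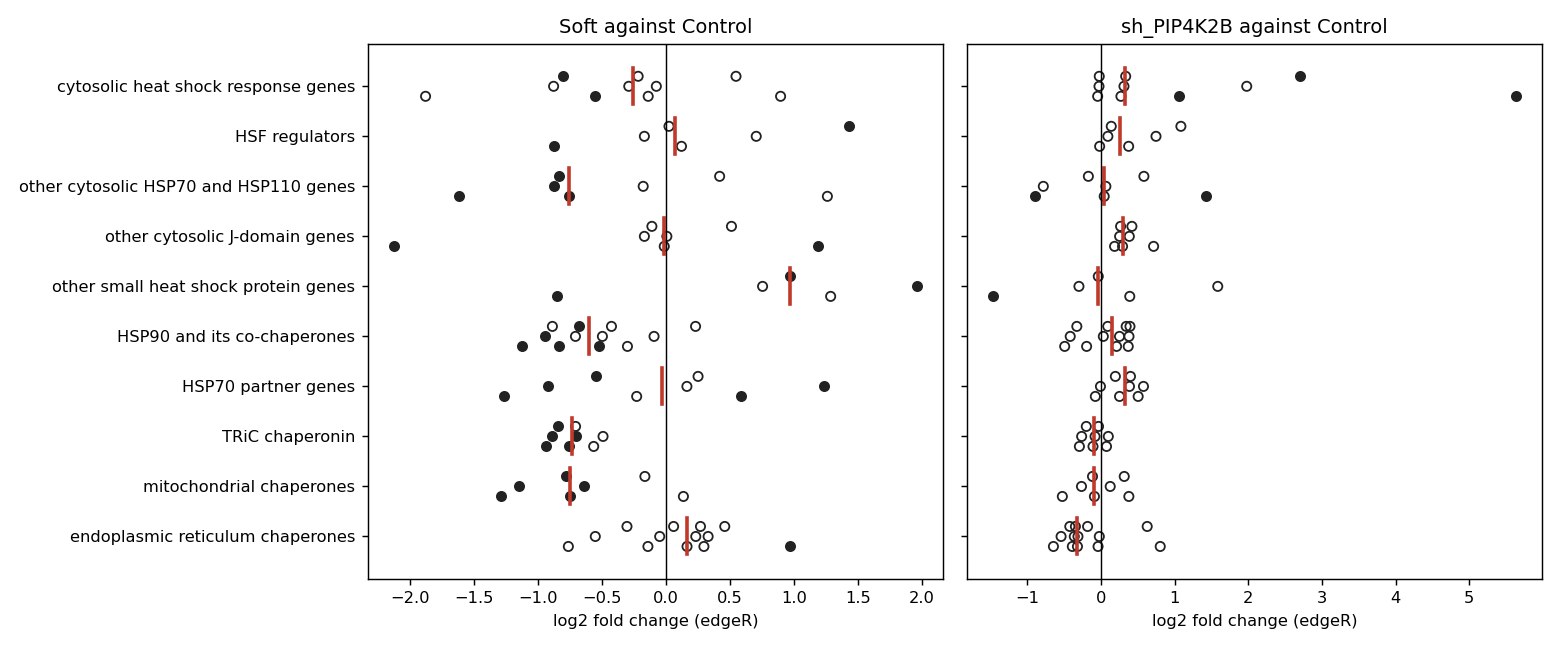
Log2 fold change of each gene in Soft against Control (left) and sh_PIP4K2B against Control (right) by list, with filled points at an adjusted p below 0.01 (edgeR), open points otherwise and a red bar at the median of the list. In Soft the medians of other cytosolic HSP70 and HSP110 genes, mitochondrial chaperones, TRiC and HSP90 partners lie between -0.76 and -0.60. In sh_PIP4K2B the points farthest to the right include HSPA6, under whose high level the genes were chosen, so filled points there are a description.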

How the data were processed

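Per the labels and the study's methods, the authors prepared stranded poly(A) libraries from total RNA, sequenced them as paired reads of 75 nt, aligned them to GRCh38/hg38 with STAR and deposited 1 table of estimated counts per gene symbol, not scaled between libraries and not pooled. The submitters' processing notes also name Salmon. The annotation is not given in the sources used here. Of the values 12.3% were not whole and all were rounded, and 13784 of 26475 genes passed filterByExpr, all 10 members among them.

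The quasi-likelihood F test of edgeR 4.0.16 (R 4.3.3, TMM scaling) was applied in a single fit over 9 libraries, with Benjamini-Hochberg adjustment over all genes and a threshold of 0.01. The standard error was taken from the F statistic. The scripts were tested on simulated data. Alternatives were other scalings and filters, DESeq2 1.42.0 (the study's tool), a block for the replicate number, fits restricted to the pair of conditions, and leaving out each library. Coordinates and transcripts are from GENCODE v44 (GRCh38), promoters from RefSeq.

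The members and lists were chosen with earlier results of these data known. Named genes were the members, PIP4K2B, HSF1, HSF2, the 3 largest changes past the threshold in each list and comparison, and the 5 genes most correlated with HSPA6. Genes named beyond these were HSPA1L, CRYAB, HSPA5, HSBP1, DEDD2, DNAJA1, DNAJA2, DNAJB2, DNAJB6, DNAJC7 and the cell type markers. They were chosen from the lists, all but the markers after their values were seen.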

Additional observations from a re-analysis of the deposited data

How the results depend on the processing

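The count of called genes among the 10 changed with the scaling, the tool, the threshold and the libraries in the fit. In Soft against Control it was 2, and 1 when scaled by library size only, 4 with DESeq2, 4 at an adjusted p below 0.05, 9 in the fit of the 2 conditions alone and 1 to 7 without 1 library. In sh_PIP4K2B against Control it was 3, and 0 in the fit of the 2 conditions alone, where 4 had an unadjusted p below 0.05 (edgeR), and 0 to 4 without 1 library. In Soft against sh_PIP4K2B it was 6, and 3 in the fit of the 2 conditions alone and 3 to 7 without 1 library. For the 73 list genes the count in Soft was 32, and 62 in the fit of the 2 conditions alone and 14 to 42 without 1 library. In sh_PIP4K2B it was 3, and 13 with DESeq2, 13 at an adjusted p below 0.05, 0 in the fit of the 2 conditions alone (17 at an unadjusted p below 0.05, edgeR) and 0 to 12 without 1 library. Calls over all genes moved too, and the counts above are to be read against them. In Soft against Control 30.6% of all genes were called in the main fit and 70.7% in that of the 2 conditions alone. In sh_PIP4K2B against Control 763 of 13784 genes were called in the main fit and 2066 with DESeq2. The fit of these 2 conditions alone called 5 of 13331, and those without Control replicate 1, 2 or 3 called 122, 66 and 161. In Soft against sh_PIP4K2B 4135 were called, and 2183 in the fit of the 2 conditions alone. The fits of fewer libraries rest on fewer samples, and the cause of each change was not tested.

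The sum of HSPA1A and HSPA1B in Soft passed in the fit of the 2 conditions alone (0.71, adjusted p = 4.3e-10, edgeR) and without hairpin #1 (0.70, adjusted p = 8.0e-05, edgeR), within values from 0.69 to 0.76 without 1 library. Scaled by library size only they turned for HSPB1 in Soft (0.031) and for HSPA8 (0.051), DNAJB1 (0.063) and BAG3 (0.076) in sh_PIP4K2B. Without 1 library in sh_PIP4K2B, DNAJB1 ranged from -0.094 to 0.051 and HSP90AA1 from -0.12 to 0.59, both turning without hairpin #1, and BAG3 turned to 0.046 without hairpin #2. Why these turned was not tested. The 3-unit motif was in 3 windows against 8. HSPA6 was not tested where at least 10 counts were asked of every library, since Soft held 4 to 8.

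With the replicate number as a block 1 of the 10 genes was called in Soft and 1 list gene in sh_PIP4K2B, and the count over all genes in sh_PIP4K2B fell from 763 to 295. No other count of these 3 comparisons moved by over 1.5 times. Same-numbered libraries did not deviate together (correlations from -0.10 to 0.042 over 9 pairs), and not every library correlated best with its own number, so that they share only a number.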
